A study of Mus musculus with 16 samples.

Results

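The nuclear-encoded subunits of the respiratory chain and of ATP synthase were followed in CD4-positive T cells of the mouse uterus and its draining lymph nodes. Members were the protein-coding genes whose symbol starts with Ndufa, Ndufb, Ndufc, Ndufs or Ndufv, with Sdh followed by a to d, with Uqcr, with Cox4 to Cox8 or with Atp5, leaving out Cox6a2 and the assembly factors of complexes I and II. This gave 84 of the 49585 genes counted, of which 21734 are protein-coding: 36 genes of complex I, 4 of complex II, 8 of complex III, 19 of complex IV and 17 of complex V. Ndufa4 and Ndufa4l2 were counted with complex IV. Cyc1 of complex III falls outside these symbols and was counted with the electron carriers and exchangers below. Atp5s enters by its symbol alone. RefSeq lists it as Dmac2l, and it is not a classical subunit of the enzyme.

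All mice were BALB/c animals with a Foxp3 IRES-GFP reporter, and no age was stated for them. There were 4 groups of 4 libraries. Conventional CD4-positive T cells (CD4conv, Foxp3-) came from the non-pregnant uterus. Regulatory T cells (Treg, Foxp3+) came from the non-pregnant uterus (CD25-), from the pregnant uterus at days 6 to 8 (CD25-) and from the para-aortic lymph nodes of non-pregnant mice (CD25+). The titles of 3 of the 4 pregnant samples give a later last day than their source labels. Each library was a pool of 20 non-pregnant or 3 to 8 pregnant mice, so a value is the mean of several animals. Replicates are numbered 1, 2, 3 and 5 in the non-pregnant groups and 1 to 4 in the pregnant group. Sequencing batch 1 held CD4conv and pregnant Treg, and batch 2 held the other two groups. Treg of node and uterus also differ in their CD25 gate.

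The respiratory chain sits in the inner mitochondrial membrane and passes electrons from NADH and succinate to oxygen. Complexes I, III and IV pump protons, complex II feeds in electrons without pumping, and complex V (ATP synthase) lets the protons back and makes ATP. Most subunits are encoded in the nucleus and imported, while a small core is encoded in mitochondrial DNA, and the 2 sets must be built together. Regulatory T cells are known for leaning on oxidative phosphorylation, and effector T cells for raising glycolysis when activated. The nuclear genes are known as targets of NRF1, of the ETS factor GABP (also called NRF2) and of YY1, which bind near the start sites of many of them.

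Promoter sequences show where such letters occur among the members. RefSeq (GRCm38.p6) gave a promoter of 250 bases before to 50 bases after the start for 69 of the 84 members. The NRF1 core GCATGCGC, read on both strands, lay in 10 of 69 promoters (14.5%), against 3.93% of the promoters of 17491 protein-coding genes. The YY1 element AAGATGGC lay in 10 of 69 (14.5%, against 3.57%) and the ETS site CCGGAAGT in 5 of 69 (7.25%, against 5.69%). At least 1 of the 3 was found in 24 of 69 (34.8%, against 12.3%), with 11 of 32 promoters in complex I, 1 of 3 in complex II, 3 of 5 in complex III, 2 of 14 in complex IV and 7 of 15 in complex V. None of the 3 motifs contains another. The 60-base stretches of 5 members are shown as examples of each motif, on the strand of the gene, with the motif in capitals (the ETS site appears as its reverse complement). A match is a description of letters, and binding was not measured.
Cox6a1 chr5:115349085-115349144 (minus strand), NRF1: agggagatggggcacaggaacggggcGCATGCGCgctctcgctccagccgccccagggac
Sdhb chr4:140961191-140961250 (plus strand), NRF1: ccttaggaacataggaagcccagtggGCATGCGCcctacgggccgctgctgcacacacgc
Atp5h chr11:115419925-115419984 (minus strand), ETS: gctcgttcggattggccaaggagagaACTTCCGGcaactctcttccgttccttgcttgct
Uqcrh chr4:116075071-116075130 (minus strand), ETS: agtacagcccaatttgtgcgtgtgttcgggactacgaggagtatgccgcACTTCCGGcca
Atp5j chr16:84835031-84835090 (minus strand), YY1: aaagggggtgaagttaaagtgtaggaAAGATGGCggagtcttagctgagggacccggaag

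Levels are deposited read counts per 1000000 counts of the library (CPM). Total counts ran from 1718558 (lymph node Treg 3) to 15190212 (pregnant Treg 3). Part of the reads falls on genes that are silent in T cells: scaled from 1427 olfactory and vomeronasal receptor genes, this background was estimated at 8.69% (pregnant Treg 3) to 53.6% (pregnant Treg 4) of the counts. It was over 30% in 5 libraries: pregnant Treg 2 and 4, uterine Treg 3 and 5, and lymph node Treg 3. Comparisons were therefore made both over all 30096 genes that passed the count filter, which held 80 members, and over the 4719 tested protein-coding genes above 5 times the background, which held 74. The 5 Treg markers summed to 150 to 362 CPM in CD4conv and to 1019 to 4067 CPM in the Treg groups, and all 10 T cell markers were detected in every group. The 15 macrophage and dendritic cell markers summed to 2797 to 26060 CPM in CD4conv, 129 to 166 in lymph node Treg, 328 to 1326 in uterine Treg and 182 to 513 in pregnant Treg. The 7 NK and CD8 cell markers summed to 349.6 to 699.7 CPM in CD4conv, 68.3 to 118 in lymph node Treg, 20.2 to 74.3 in uterine Treg and 46.7 to 73.6 in pregnant Treg. No marker of these lists was at 0 in a whole group, and for both lists CD4conv did not overlap with any Treg group. In these bulk samples fewer cells of a type and less RNA per cell cannot be told apart.

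The members spanned a wide range of levels. Per kilobase of transcript, averaged over the 16 libraries, the highest level was that of Atp5b, the catalytic beta subunit of ATP synthase, with 382 CPM per kb. Cox4i1, the common isoform of cytochrome oxidase subunit 4, followed with 330 CPM per kb, then Cox6a1 with 297, Atp5g3 with 275, Cox6c with 243 and Atp5a1, the alpha subunit of ATP synthase, with 239. The median member of each complex stood at 56.3 CPM per kb in complex I, 78.6 in complex II, 131 in complex III, 92.4 in complex IV and 142 in complex V. The lowest levels belonged to isoforms known from other tissues: Ndufa4l2 with 0.538 CPM per kb, Cox8b with 0.668, Cox6b2 with 1.32, Cox7a1 with 2.28, Cox4i2 with 3.41 and Cox8c with 4.35. All 6 were under 5 times the background, and 4 of them (Ndufa4l2, Cox6b2, Cox8b and Cox7a1) were below the background itself. Ndufa4l2 had no count in 9 of 16 libraries and Cox8b in 8 of 16.

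**Figure D1:**
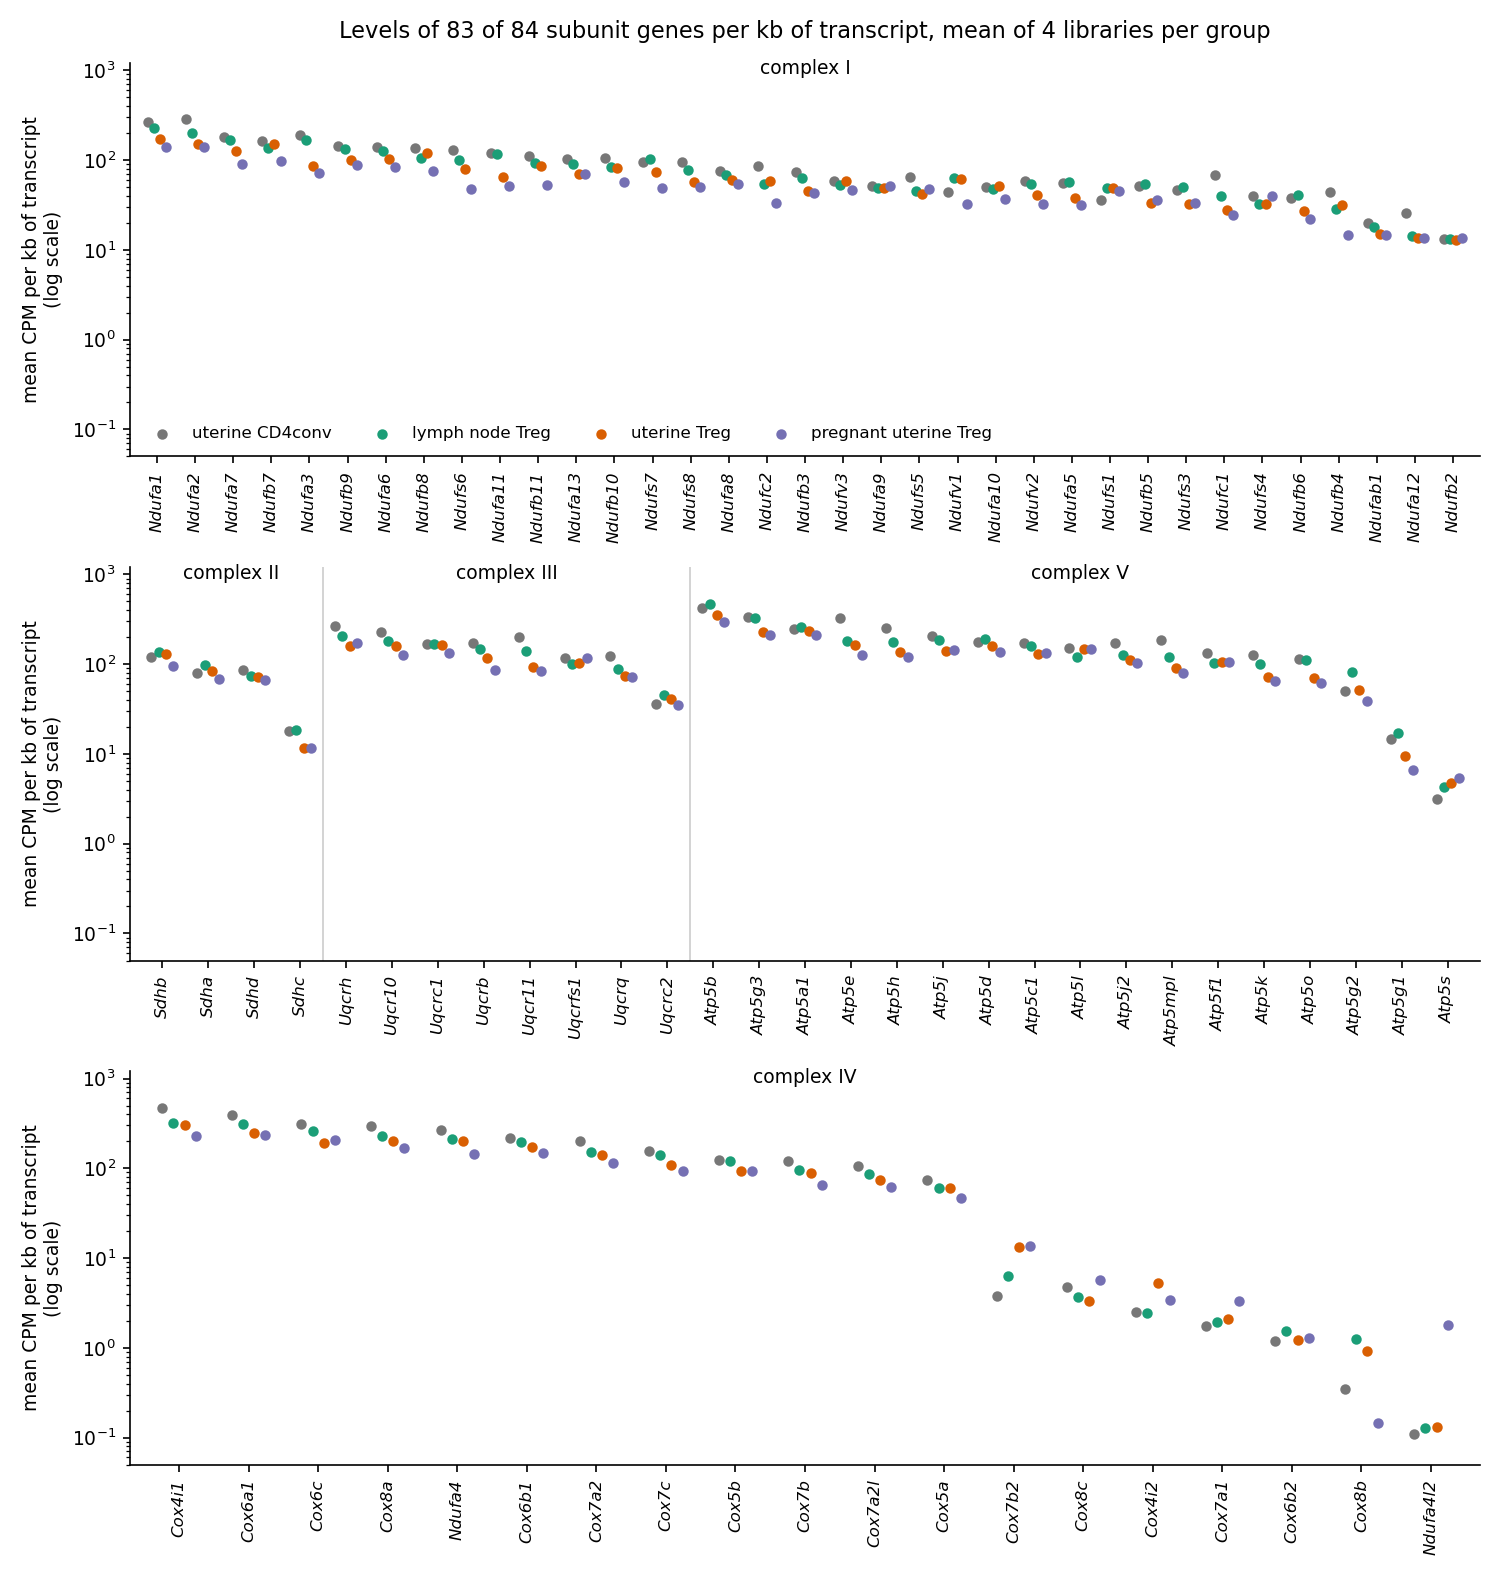
Level of 83 of the 84 members per kilobase of transcript (CPM per kb, log axis), by complex, with 1 point per group for the mean of its 4 libraries. ATP synthase and cytochrome oxidase subunits hold the top of the range (Atp5b averages 382 and Cox4i1 330 over the groups), and the lowest points are isoforms of complex IV such as Ndufa4l2 (0.538) and Cox8b (0.668).

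Subunits 4 and 7a of cytochrome oxidase each have a common and a tissue isoform, and the common one held nearly all the counts on average. Cox4i2, the lung and hypoxia isoform of subunit 4, made up 0.781% ± 0.675 of the Cox4i1 and Cox4i2 counts in CD4conv, 0.850% ± 0.652 in lymph node Treg, 2.45% ± 3.56 in uterine Treg and 1.72% ± 2.05 in pregnant Treg (SD, n = 4 libraries each, as in all such values here). Cox7a1, the heart and muscle isoform of subunit 7a, stayed between 0.687% ± 0.686 and 2.55% ± 3.68 of Cox7a1 and Cox7a2. All groups overlap in both shares. The proton-carrying c subunit of ATP synthase is encoded by 3 genes for the same mature protein. Atp5g3 supplied 77.1% ± 2.80 of their counts in CD4conv, 72.1% ± 3.20 in lymph node Treg, 74% ± 4.67 in uterine Treg and 76.3% ± 11.1 in pregnant Treg, and its lowest share was 59.9% in a pregnant Treg library, so that gene held most of the counts in every library.

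The summed share of the members in the total counts overlapped between all 4 groups. In CD4conv the 84 genes took 0.883%, 1.35%, 0.790% and 0.758% of the counts in replicates 1, 2, 3 and 5 (mean 0.945% ± 0.275). In lymph node Treg the shares were 1.21%, 0.735%, 0.722% and 0.785% (mean 0.862% ± 0.231). One library stood above its group in each case, CD4conv 2 and lymph node Treg 1. In uterine Treg the shares were 0.795%, 0.960%, 0.567% and 0.606% (mean 0.732% ± 0.182), and in pregnant Treg 0.769%, 0.606%, 0.746% and 0.383% (mean 0.626% ± 0.178). The lowest share was that of pregnant Treg 4, the library with the most background. Against the counts of genes above background only, the means were 14066 ± 3836, 12837 ± 2128, 11291 ± 1150 and 10013 ± 1170 CPM in the same order of groups. On that scale every CD4conv library (11708 to 19740 CPM) lay above every pregnant Treg library (8428 to 11237 CPM), and the other pairs of groups overlapped.

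**Figure D2:**
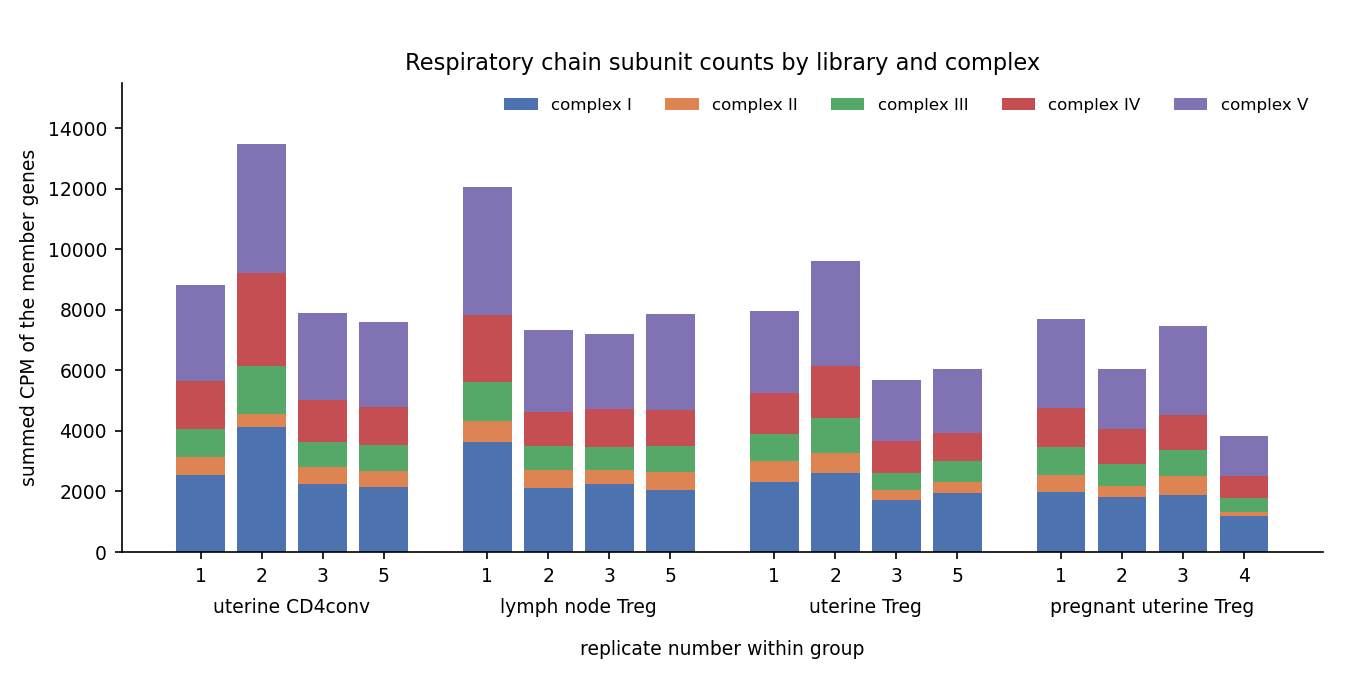
Summed CPM of the members in each of the 16 libraries (1 bar per library, labelled by replicate number), stacked by complex I to V in colour. CD4conv 2 (13494 CPM) and lymph node Treg 1 (12060 CPM) stand above the other libraries of their groups, and pregnant Treg 4 (3827 CPM) is lowest.

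The complexes took similar mean shares of the members' counts in the 4 groups. Complex V supplied 35.2%, 36.7%, 35.0% and 36.3% of the members' counts in CD4conv, lymph node Treg, uterine Treg and pregnant Treg, with SDs from 0.982 to 2.89 percentage points. Complex I supplied between 27.8% ± 2.86 (pregnant Treg) and 29.7% ± 2.11 (uterine Treg), and complex IV between 16.6% ± 1.62 (lymph node Treg) and 18.6% ± 2.88 (CD4conv). Complex III ran from 10.6% ± 0.270 in lymph node Treg to 11.96% ± 0.477 in pregnant Treg, and the libraries of these groups did not overlap (10.3% to 10.9% against 11.5% to 12.4%). Lymph node and pregnant Treg differ in tissue, pregnancy, CD25 gate and batch at once, and the pair is outside the comparisons tested below. All other pairs of groups overlapped in every complex. Complex II had means from 6.04% ± 1.88 in CD4conv to 7.03% ± 1.01 in lymph node Treg, with single libraries from 3.25% in CD4conv to 8.62% in uterine Treg. For the CPM of single members, the median coefficient of variation between the 4 libraries was 36.9% in CD4conv, 34.9% in lymph node Treg, 33.8% in uterine Treg and 32.6% in pregnant Treg. These medians are over the 74 members above background. CPM also holds shifts of whole libraries, so they are not compared with the SDs of the shares.

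No member passed the edgeR quasi-likelihood test over all genes (Benjamini-Hochberg adjusted p under 0.05) in any of 4 comparisons. The share of all genes called was 0% for uterine against lymph node Treg (tissue), 0.518% for uterine Treg against CD4conv (cell type), 0% for pregnant against non-pregnant uterine Treg (pregnancy) and 0.432% for pregnant Treg against CD4conv. At an unadjusted p under 0.05, 0, 3, 0 and 12 of 80 members were found in the same order, and DESeq2 also called 0 members in each. No share of all genes at an unadjusted p under 0.05 is given, so the unadjusted counts are read no further. The comparisons share groups and are not independent of one another. The median log2 fold change of the members was -0.44 (tissue), -0.83 (cell type), -0.13 (pregnancy) and -0.97 for pregnant Treg against CD4conv, beside -0.06, -0.05, 0.11 and 0.07 over all genes tested. Negative values were found for 74, 73, 58 and 77 of 80 members.

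The offset was smaller among genes above background in 3 of the 4 comparisons. There the members' medians were -0.09 (tissue), -0.43 (cell type), -0.14 (pregnancy) and -0.58 for pregnant Treg against CD4conv, against 0.05, 0.02, 0.00 and 0.03 for all genes of that fit. Negative values were found for 47, 60, 50 and 67 of 74 members. In this fit edgeR called 1.29%, 6.1%, 0% and 8.39% of the genes in the same order. It called 0 members in the first 3 comparisons, where 1, 6 and 3 of 74 had an unadjusted p under 0.05 and DESeq2 called 0. In the comparison of pregnant Treg with CD4conv, 1 of 74 members fell (1.35%) against 4.28% of all genes, and 22 had an unadjusted p under 0.05. DESeq2's Wald test called 5 of 74 lower there, against 6.92% of all genes. By neither tool was the share of members called above that of all genes. The share of all genes with an unadjusted p under 0.05 was not set beside the members' unadjusted counts, so nothing is read from those counts.

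By complex, the same fit gave medians for pregnant Treg against CD4conv of -0.60 in complex I (31 of 34 negative), -0.23 in complex II (4 of 4), -0.41 in complex III (6 of 8), -0.59 in complex IV (12 of 13) and -0.41 in complex V (14 of 15). For uterine Treg against CD4conv they were -0.42, -0.05, -0.47, -0.43 and -0.48. For the tissue comparison the medians ran from -0.20 in complex V to -0.01 in complex IV, and for pregnancy from -0.21 in complex I to -0.07 in complex III. Complex II stood nearest to 0 in both comparisons with CD4conv. Uterine Treg and CD4conv, and likewise pregnant and non-pregnant uterine Treg, were sequenced in different batches, so batch and group cannot be told apart in these.

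Complex I takes electrons from NADH and is the largest of the complexes. The 1 member that passed edgeR's test was Ndufc1, a small accessory subunit of its membrane arm (ENSMUSG00000037152, GRCm38 chr3:51404677-51408988, minus strand). Its levels were 39.9, 97.2, 40.2 and 36.9 CPM in CD4conv 1, 2, 3 and 5, and 27.1, 17.6, 24.4 and 6.72 CPM in pregnant Treg 1 to 4. In lymph node Treg they were 50.5, 22.4, 21.5 and 29.3 CPM and in uterine Treg 15.9, 27.4, 19.5 and 25.2 CPM. Every CD4conv library lay above every uterine Treg library of either kind, CD4conv 2 far above the rest, and lymph node Treg overlapped with CD4conv. Among genes above background Ndufc1 fell in pregnant Treg against CD4conv by 1.43 on the log2 scale (SE 0.43, edgeR adjusted p = 0.0479). Over all genes it stood at -1.69 (SE 0.68, edgeR adjusted p = 0.779). The call was lost when any single library of either group other than CD4conv 5 was left out. Without CD4conv 2 the value above background was -0.90 with an edgeR adjusted p of 0.233, and without each of the other 6 it was -1.57 to -1.29 with an edgeR adjusted p of 0.0554 to 0.0851.

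Other accessory subunits had similar values and did not pass edgeR's test. Ndufb4, also of the membrane arm, stood at 34.2, 73.2, 32.9 and 32.4 CPM in CD4conv, 32.9, 31.0, 27.3 and 20.98 in lymph node Treg, 23.4, 42.4, 36.5 and 20.8 in uterine Treg, and 20.9, 16.3, 17.9 and 1.68 in pregnant Treg. Pregnant Treg were lowest and did not overlap with CD4conv (log2 fold change -1.56, SE 0.49, edgeR adjusted p = 0.057), and they touched the lower end of uterine Treg (-1.15, SE 0.49, edgeR adjusted p = 0.743). Ndufb4 has 1 near-identical copy elsewhere in the genome (Ndufb4c), so its counts are uncertain. Ndufa3 stood at 56.6 to 172 CPM in CD4conv and 26.9 to 49.7 CPM in pregnant Treg, again without overlap (-1.21, SE 0.38, edgeR adjusted p = 0.0524). DESeq2 called Ndufb4, Ndufa3 and Ndufc1, and with them Ndufa11 and Ndufc2, lower in that comparison. Without CD4conv 2, edgeR gave Ndufb4 -1.12 (adjusted p = 0.224) and Ndufa3 -0.71 (adjusted p = 0.249).

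In pregnant Treg against CD4conv above background, most core subunits of complex I had negative values, and Ndufs1 a positive one. Ndufs3 stood at -0.37, Ndufs7 at -0.80, Ndufs8 at -0.75, Ndufv1 at -0.38 and Ndufv2 at -0.80. Their edgeR adjusted p was 0.165 or more. Ndufs1, the largest subunit, which carries iron-sulfur clusters, stood at 94.7, 83.2, 92.9 and 110 CPM in CD4conv, 83.5, 141, 152 and 134 in lymph node Treg, 119, 85.5, 137 and 175 in uterine Treg, and 85.3, 98.4, 108 and 179 in pregnant Treg. The groups overlap. For pregnant Treg against CD4conv the value above background was 0.72 (SE 0.41, edgeR adjusted p = 0.29), the highest among members with at least 20 CPM. Over all genes Ndufs1 stood at 0.04 (SE 0.43). Ndufv1, which binds NADH and flavin, ranged from 34.8 to 223 CPM in uterine Treg and from 13.2 to 77.9 CPM in pregnant Treg (pregnancy value -0.88, SE 0.40, edgeR adjusted p = 0.765).

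**Figure D3:**
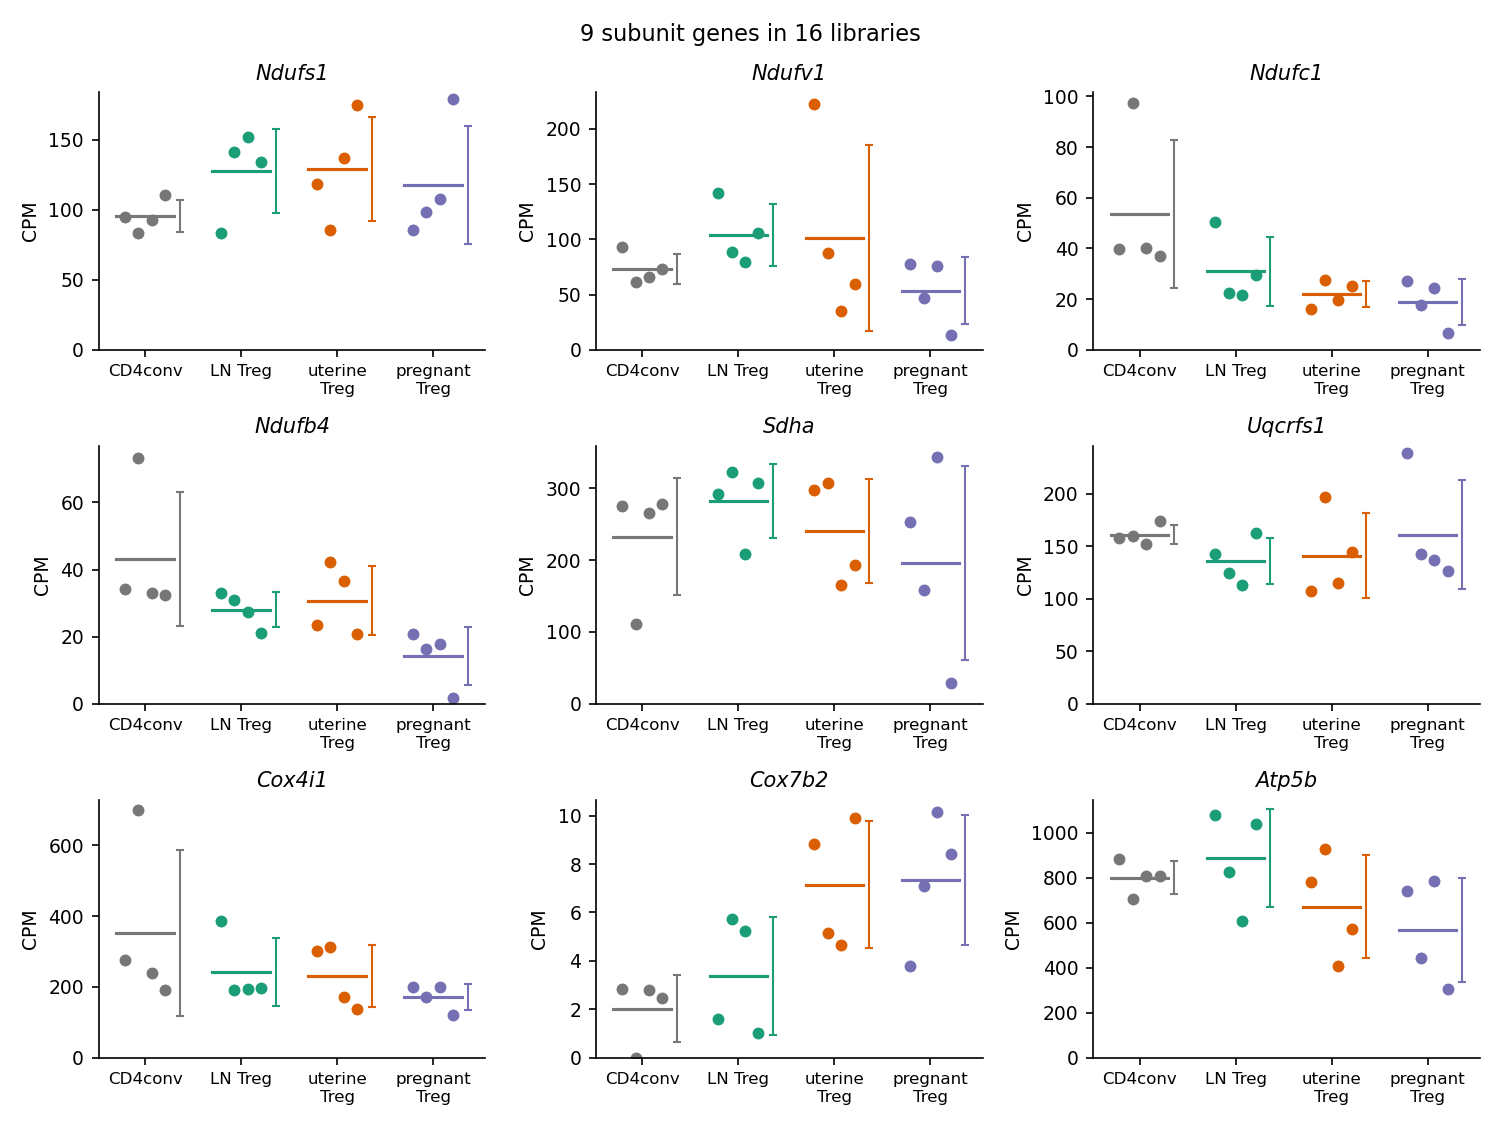
CPM of 9 members in each of the 16 libraries by group (1 point per library, line at the mean, bar for the SD). Ndufc1, Ndufb4 and Cox4i1 show CD4conv 2 far above the other libraries, Sdha shows it below them, and Cox7b2 is higher in both uterine Treg groups than in CD4conv.

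Complex II oxidises succinate and belongs to the citric acid cycle as well, and all of its subunits are nuclear. Sdha, the flavoprotein, stood at 276, 111, 266 and 278 CPM in CD4conv, 292, 323, 208 and 308 in lymph node Treg, 298, 308, 165 and 193 in uterine Treg, and 253, 159, 343 and 29.1 in pregnant Treg. CD4conv 2, the highest library for most members, was the lowest of its group here. The groups overlap and no edgeR adjusted p for Sdha was below 0.756 in the comparisons above background. Sdhb, the iron-sulfur subunit, had means of 136 ± 12.2, 158 ± 36.1, 147 ± 86.2 and 108 ± 58.4 CPM in CD4conv, lymph node, uterine and pregnant Treg. The membrane anchors Sdhc and Sdhd had means of 36.9 to 59.4 and 82.7 to 107 CPM. Sdhc had no count in uterine Treg 1.

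Complex III passes electrons from ubiquinol to cytochrome c. Uqcrfs1, the Rieske iron-sulfur protein, varied little in CD4conv (161 ± 9.18 CPM), with 158, 160, 152 and 174 CPM in CD4conv, 143, 124, 113 and 163 in lymph node Treg, 108, 196, 115 and 145 in uterine Treg, and 238, 142, 137 and 126 in pregnant Treg. All groups overlap, and the pregnancy value was 0.31 (SE 0.23, edgeR adjusted p = 0.861). Uqcrc1, a core protein, had means of 276 ± 82.2, 277 ± 74.9, 271 ± 111 and 218 ± 128 CPM. Uqcrh, the hinge protein, had means of 144 ± 89.6, 112 ± 31.6, 87.9 ± 36.8 and 93.8 ± 7.53 CPM, the CD4conv mean being raised by 278 CPM in CD4conv 2 against 86.0 to 110 in the other 3 libraries.

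Complex IV, cytochrome c oxidase, reduces oxygen. Cox4i1 stood at 276, 699, 239 and 191 CPM in CD4conv, 385, 191, 193 and 197 in lymph node Treg, 300, 313, 172 and 138 in uterine Treg, and 200, 171, 199 and 120 in pregnant Treg. A single library lies far above the others in CD4conv and another in lymph node Treg, and all groups overlap. Cox6a1 had means of 224 ± 116, 179 ± 76.6, 141 ± 55.4 and 133 ± 50.2 CPM, and Cox5a of 47.4 ± 15.4, 38.6 ± 15.3, 38.8 ± 15.1 and 30.3 ± 14.2 CPM. Cox6c had means of 186 ± 59.7, 160 ± 60.9, 116 ± 16.0 and 126 ± 7.55 CPM. In CPM every CD4conv library (151 or more) lay above every uterine Treg library of either kind (137 or less). On the scale of genes above background this held against non-pregnant uterine Treg only. There pregnant Treg 2 and 4 lay above CD4conv 1, 3 and 5. The edgeR adjusted p of Cox6c was 0.294 for the cell type comparison (log2 fold change -0.60, SE 0.30). Cox7c, which has 2 near-identical copies elsewhere, had means of 50.3 to 84.2 CPM.

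One isoform of complex IV had values in the other direction. Cox7b2, an isoform of subunit 7b known from testis (ENSMUSG00000049387, GRCm38 chr5:71442824-71548205, minus strand), stood at 2.84, 0, 2.82 and 2.48 CPM in CD4conv and 1.59, 5.72, 5.24 and 1.01 CPM in lymph node Treg. It stood at 8.85, 5.16, 4.67 and 9.90 CPM in uterine Treg and at 3.78, 7.10, 10.1 and 8.39 CPM in pregnant Treg. Both uterine Treg groups lay above CD4conv in every library, and lymph node Treg overlapped with both. Over all genes the values were 1.66 for uterine Treg against CD4conv (SE 0.95, edgeR adjusted p = 0.9994) and 1.83 for pregnant Treg against CD4conv (SE 0.95, edgeR adjusted p = 0.9999), so neither passed the test. Cox7b2 supplied 1.97% ± 1.33 of the Cox7b and Cox7b2 counts in CD4conv, 3.53% ± 2.61 in lymph node Treg, 7.39% ± 2.37 in uterine Treg and 9.95% ± 3.15 in pregnant Treg. These values rest on 73, 35, 85 and 267 counts per group in the same order, and the background expected for its length was 0.680 to 1.18 CPM. Averaged over all libraries it stood at 5.10 times the background, just inside the limit of 5. Only the uterine Treg groups carried it past that limit, with means of 7.15 and 7.35 CPM against 2.03 in CD4conv and 3.39 in lymph node Treg, so its values in that set are given no test. The next member below that limit was Atp5g1 with 3.63 times.

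Complex V uses the proton gradient to make ATP. Atp5b stood at 882, 705, 810 and 806 CPM in CD4conv, 1080, 825, 609 and 1040 in lymph node Treg, 782, 928, 407 and 571 in uterine Treg, and 741, 443, 787 and 307 in pregnant Treg. The groups overlap, and the 2 libraries lowest in Atp5b, uterine Treg 3 and pregnant Treg 4, are among those with over 30% background. Atp5a1 had means of 612 ± 42.0, 648 ± 178, 585 ± 171 and 518 ± 248 CPM, and Atp5c1, the central stalk subunit, of 200 ± 25.4, 186 ± 33.1, 153 ± 34.7 and 154 ± 76.8 CPM. Atp5g3 had means of 240 ± 76.3, 237 ± 64.7, 162 ± 51.7 and 152 ± 63.4 CPM. Its edgeR adjusted p was 0.316 for uterine Treg against CD4conv (-0.50, SE 0.26).

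The members at the ends of each comparison were taken by fold change over all genes, among those whose higher group mean was 20 CPM or more. Unless marked otherwise, the values printed here and in the next paragraph are from the fit on genes above background. They can differ from the ranking values in order and sign. In pregnant Treg against CD4conv the low end beside Ndufb4 and Ndufc1 held Ndufs6, a zinc-binding accessory subunit of complex I, and Atp5e, the epsilon subunit of ATP synthase. Ndufs6 stood at 52.5, 151, 46.9 and 44.6 CPM in CD4conv, while pregnant Treg had 36.6, 39.1, 29.9 and 3.36 CPM (above background -1.38, SE 0.53, edgeR adjusted p = 0.119). Atp5e stood at 94.9, 290, 85.0 and 77.7 CPM in CD4conv, while pregnant Treg had 52.7, 55.8, 62.5 and 42.3 CPM (-1.16, SE 0.43, edgeR adjusted p = 0.107). In CPM both show no overlap between these groups and CD4conv 2 far above the other CD4conv libraries. On the scale of genes above background Atp5e again shows no overlap. Ndufs6 overlaps there, with pregnant Treg 2 above CD4conv 3 and 5. The high end held Ndufs1, Uqcrc2, the second core protein of complex III, Sdha and Ndufa9. Over all genes they stood at 0.04, -0.03, -0.10 and -0.10. Above background Uqcrc2 stood at 0.13, Sdha at -0.21 and Ndufa9 at 0.27.

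In uterine Treg against CD4conv the low end was Ndufc1 (-1.19), Uqcr11, a small subunit of complex III (-1.08), Ndufa3 (-1.07) and Atp5mpl, a small membrane subunit of ATP synthase (-0.93), and the high end included Ndufs1 (0.62), Ndufv1 (0.50) and Uqcrc2 (0.24), with edgeR adjusted p of 0.107 or more. In the pregnancy comparison, Ndufb11 (-0.63) joined Ndufb4 and Ndufv1 at the low end, and Ndufs4 (0.42), Uqcrfs1 (0.31), Ndufa9 (0.22) and Atp5c1 (0.00) made up the high end, with edgeR adjusted p of 0.743 or more for these. In the tissue comparison the low end over all genes was Ndufa3 (-1.16), Atp5g1 (-1.10), Ndufa11 (-1.10) and Atp5g2 (-0.90). Above background Ndufa3 stood at -0.83, Ndufa11 at -0.70 and Atp5g2 at -0.48, and Atp5g1 was not tested. The high end over all genes was Atp5l (0.18), Ndufb4 (0.03), Ndufv3 (0.01) and Ndufb8 (-0.002). Above background these stood at 0.50, 0.29, 0.32 and 0.35. At both ends the edgeR adjusted p was 0.43 or more among genes above background.

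Over the whole set, members whose 4 libraries did not overlap between groups were counted on the scale of genes above background. For pregnant Treg against CD4conv, 16 of 74 members lay lower (21.6%), against 9.05% of all genes. For uterine Treg against CD4conv, 5 lay lower (Atp5j, Cox6c, Ndufa11, Ndufa3 and Ndufc1, 6.76%, against 7.06%). Cox7b2 alone lay higher in these comparisons (against 4.49% and 4.83% of all genes), and nothing is read from it, since the groups where it is high carried it past the background limit. For pregnancy 3 lay lower (Ndufb4 and Ndufb8 among them, 4.05%, against 1.48%) and 0 higher (against 1.74%). For tissue 1 lay lower (Ndufa11, against 6.95%) and 0 higher (against 3.62%). The members have short transcripts, 54 of 84 under 1000 bases with a median of 772.5. Among other genes with transcripts under 1000 bases, 83 of 504 (16.5%) lay lower in pregnant Treg than in CD4conv. The share of these short genes that lay lower was 10.3% for uterine Treg against CD4conv, 1.59% for pregnancy and 7.74% for tissue.

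Transcript length moved with the libraries that stood apart. In CD4conv 2, the 48 members above background with transcripts under 1000 bases lay at a median of 1.10 above their own mean over the 16 libraries (log2), and the other 513 such genes at 0.84. The 26 longer members lay at 0.25 and the other 4140 longer genes at -0.20. In lymph node Treg 1 the 4 medians were 0.59 and 0.44 for short and 0.33 and -0.09 for long transcripts. In pregnant Treg 4 they were -0.55, -0.47, -0.50 and -0.28. Of the 74 members, 63 were higher in CD4conv 2 than in the mean of the other 3 CD4conv libraries, with ratios up to 3.49 (Ndufa2) and down to 0 (Cox7b2) and 0.407 (Sdha). In lymph node Treg 1, 72 of 74 were higher than in the mean of the other 3, the exceptions being Cox7b2 (0.398 times) and Ndufs1 (0.587 times).

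**Figure D4:**
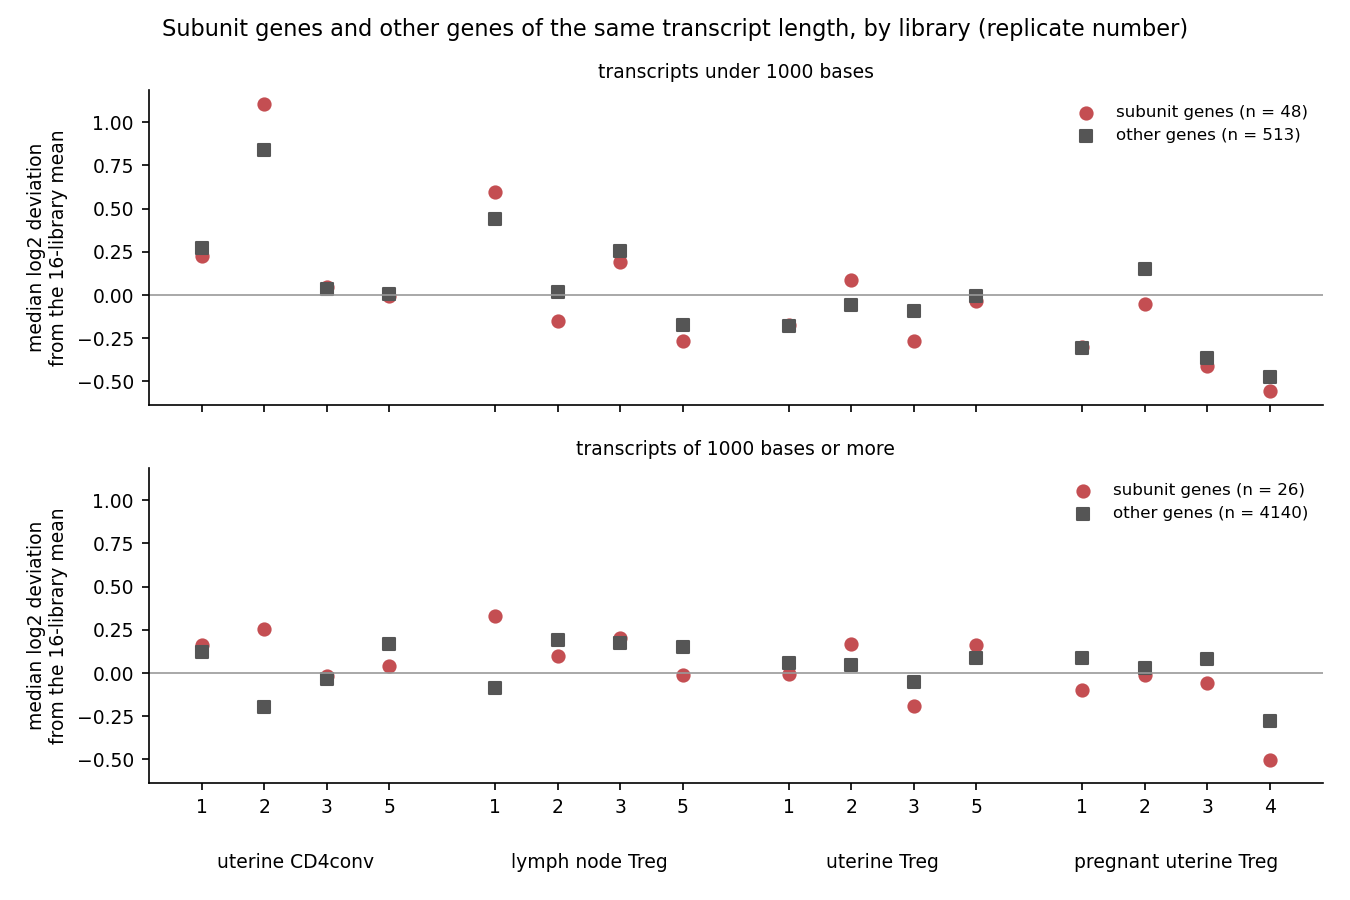
Median log2 deviation of each library from a gene's mean over 16 libraries, for members and other genes above background, split at a transcript length of 1000 bases (48 and 513 short genes, 26 and 4140 long genes). Short genes stand highest in CD4conv 2 (1.10 and 0.84), with members above the other short genes.

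The fold changes followed length in the comparisons with CD4conv. For pregnant Treg against CD4conv the median was -0.65 in members under 1000 bases and -0.46 in other genes of that length, and -0.27 in longer members beside 0.08 in other longer genes. For uterine Treg against CD4conv the 4 medians were -0.51, -0.35, -0.14 and 0.06, for tissue -0.21, -0.04, 0.03 and 0.06, and for pregnancy -0.14, -0.07, -0.07 and 0.02. Across the 74 members, which share libraries and are not replicates, Spearman's rho between length and log2 fold change was 0.53 for the cell type comparison, 0.49 for pregnant Treg against CD4conv, 0.25 for tissue and 0.06 for pregnancy. When the length trend was removed within each library, the members' medians were 0.01 (tissue), -0.07 (cell type), 0.00 (pregnancy) and -0.05 for pregnant Treg against CD4conv, and edgeR called 0 members. The trend was fitted over genes above background, members included. It therefore also takes out any group difference that members share with other genes of their length. Without CD4conv 2 the medians above background were -0.06 for cell type and -0.20 for pregnant Treg against CD4conv. Without lymph node Treg 1 the tissue median was 0.11. In CD4conv 1, 2, 3 and 5 the macrophage and dendritic cell markers summed to 7223, 20550, 26060 and 2797 CPM and the NK and CD8 cell markers to 552, 699.7, 499.96 and 349.6 CPM, beside member shares of 0.883%, 1.35%, 0.790% and 0.758%. CD4conv 5 was lowest in all of these, and CD4conv 2 was highest in the NK and CD8 cell markers and the member share. The part of those cells in the members' values was not tested.

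**Figure D5:**
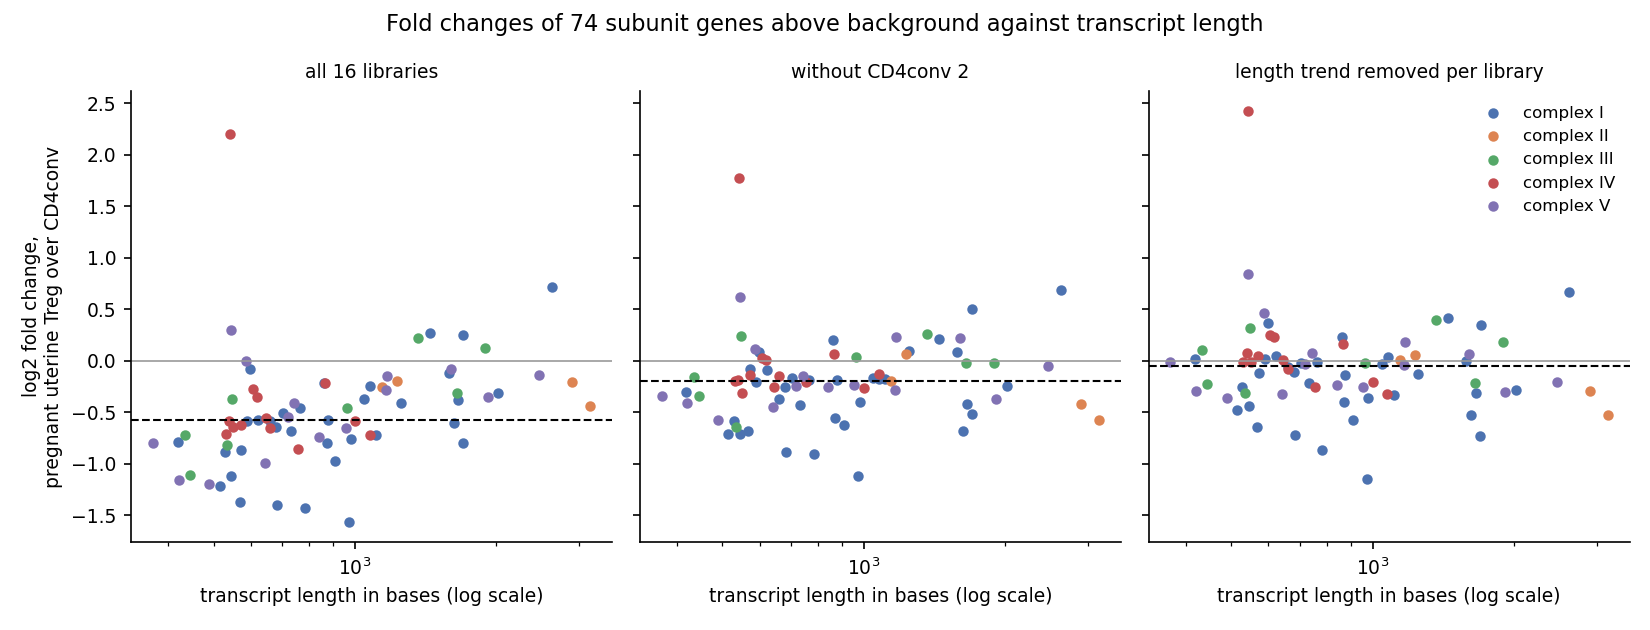
Log2 fold change of the 74 members above background, pregnant Treg against CD4conv, against transcript length in bases (log axis), for all libraries, without CD4conv 2 and with the length trend removed (1 point per member, coloured by complex). The dashed line is the members' median (-0.58, -0.20 and -0.05).

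The partners encoded in mitochondrial DNA are given beside the nuclear subunits. The 13 mitochondrial genes summed to 7661 ± 1119 CPM in CD4conv, 7525 ± 1205 in lymph node Treg, 6893 ± 1138 in uterine Treg and 7301 ± 1654 in pregnant Treg. The ratio of their sum to that of the members ran from 0.584 in CD4conv 2 to 1.38 in uterine Treg 5, with 0.976, 1.03 and 0.797 in the other CD4conv libraries and 0.997, 1.23, 1.21 and 1.32 in pregnant Treg. Of 10 tested above background, 3 fell in uterine Treg against CD4conv by edgeR (6.1% of all genes were called there in either direction): mt-Co3 (-2.25), mt-Co2 (-1.80) and mt-Atp6 (-1.73). These 3 genes of complexes IV and V were higher in both groups of batch 1 than in both groups of batch 2 (mt-Co3 means of 56.0 and 32.3 against 16.1 and 11.3 CPM), so cell type and batch cannot be told apart. The median of the 10 was -0.14 for that comparison and 0.05 for pregnant Treg against CD4conv. Group means were 1718 to 1869 CPM for mt-Co1, but 10.2 to 56.0 CPM for mt-Co2, mt-Co3 and mt-Atp6. For mt-Nd3, mt-Nd4l and mt-Atp8 they were 0.553 to 2.91 CPM. Whether reads of these low genes were lost in mapping was not tested. The sum and the ratio above share this limit.

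Other genes of the pathway were counted in the same fit. The 16 citric acid cycle genes had 0 calls by edgeR in each comparison. An unadjusted p under 0.05 was found for 2 in the pregnancy comparison, 1 in pregnant Treg against CD4conv and 0 in the others. Nothing is read from these unadjusted counts either. The medians of the 16 genes were 0.16 (tissue), -0.11 (pregnancy), 0.20 (cell type) and 0.08 for pregnant Treg against CD4conv. In pregnant Treg against CD4conv, where 4.28% of all genes fell, 1 of 18 assembly factors tested fell (5.56%; Cox14, which helps build cytochrome oxidase, -1.05), with a list median of -0.46. Of 11 electron carriers and exchangers, 1 fell there (9.09%; Cycs, cytochrome c, -1.10), with a median of -0.38. Of 44 mitochondrial ribosomal protein genes 1 fell (2.27%), with a median of -0.46, and of 79 cytosolic ribosomal protein genes 11 fell (13.9%), with a median of -0.97. Of 5 regulators tested, 0 passed edgeR's threshold in any comparison. In pregnant Treg against CD4conv they stood at 1.44 (Nrf1), 1.04 (Gabpb1), 0.39 (Tfb2m), 0.37 (Tfam) and -1.45 (Myc), with edgeR adjusted p of 0.0533 or more. There 3 had an unadjusted p under 0.05, and nothing is read from that count.

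Counting limits touch some members. A near-identical copy (at least 150 bases at 97% identity) exists elsewhere for 16 of 84 members, with 4 copies for Atp5l and 3 for Uqcrb, and reads of such genes could be split between copies. Exonic bases are shared with another gene in 29 members, most in Atp5o (47.9%), Ndufb6 (39.0%) and Ndufa13 (29.98%), and the kits do not mark strand. Ndufc1 and Cox7b2 have neither.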

How the data were processed

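The labels describe CD4-enriched, sorted cells, SMART-Seq v4 cDNA, Nextera XT libraries and paired reads of 150 bp, without strand. The authors deposited read counts per gene, not normalized, for 49585 genes. The submitters' processing notes name Trimmomatic, HISAT2, SAMtools, featureCounts, DESeq2 and GRCm38, and versions were not stated there. Single-library files were identical to the table (16 of 16). GENCODE M21 named 49326 identifiers.

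The deposited counts were tested with edgeR 4.0.16 (quasi-likelihood, TMM, filterByExpr, robust, 16 libraries, R 4.3.3), Benjamini-Hochberg adjustment over all genes tested and a threshold of 0.05. The SE is the absolute log2 fold change over the square root of F. The fit was repeated on protein-coding genes above 5 times the receptor-gene background, with TMM recomputed. The square root of the common dispersion was 0.812 over all genes and 0.433 in that set. DESeq2 1.42.0 was an alternative, and the fits were tested on simulated data. CPM levels are mean ± SD over 4 libraries, and the length of a transcript is the median over principal protein-coding transcripts. Per-library depth limits the precision of low counts, and p-values measure the spread between pools.

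Members and lists were chosen with earlier results of these data known. Named members are those past the threshold, the 4 highest and 4 lowest fold changes per comparison at 20 CPM or more, fixed subunits and isoforms, the 5 highest per exonic kilobase and those at 0 in most libraries; not every one is described, and a result under this rule is not reported here. Ndufc2, Ndufs3, Ndufs7, Ndufs8, Ndufv2, Atp5j and the regulators, and genes named for copies, overlaps, promoters or mitochondrial counts, were named after their values were seen. Removal of the length trend (lowess per library) and the leaving out of libraries with over 30% background were chosen after seeing the data.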

Additional observations from a re-analysis of the deposited data

Results flagged for a closer look

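In groups of 4 libraries, a value was singled out where the highest or lowest library lay apart from the others by more than Dixon's 95% critical value, as a share of the group's range. This held for 22 of 116 groups, from 23 members and 6 sums. The members share the same 16 libraries and the sums contain members, so the groups are not independent. No rate expected by chance is therefore set beside this count. Of the 22, 12 lay in CD4conv 2 and 7 in lymph node Treg 1.

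In CD4conv 2 the summed CPM of complex III (1583.8) and of complex IV (3085.4) lay above the other libraries of the group. So did Cox4i1 (699 CPM), Atp5g3 (354), Uqcrh (278), Cox6c (275), Sdhd (150.5), Cox7c (137), Ndufc1 (97.2) and Ndufb4 (73.2). Sdha (111 CPM) and Cox7b2 (0 CPM) lay below. In lymph node Treg 1 the sum of all members (12060 CPM), of complex I (3638.8 CPM) and of complex IV (2239.6 CPM) lay above the others, as did Cox4i1 (385 CPM), Cox6a1 (294), Cox5b (139.7) and Sdhc (85.9). Elsewhere Uqcrfs1 was high in pregnant Treg 1 (238 CPM), Atp5g3 was high in uterine Treg 2 (239.7 CPM) and Sdhd was low in pregnant Treg 4 (45.9 CPM).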

How the results depend on the processing

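Over all genes, the called members stayed at 0 in each comparison under the other normalization, filter, group choice, replicate block and DESeq2, and in genes above background 1 member fell, in pregnant Treg against CD4conv. The members' median log2 fold change went for cell type from -0.83 to -0.43 in genes above background and to -0.34 without libraries over 30% background, and for pregnant Treg against CD4conv from -0.97 to -0.58 and -0.55. Leaving out 1 library gave medians from -0.91 to 0.19 (tissue), -1.26 to -0.21 (cell type), -0.40 to 0.32 (pregnancy) and -1.21 to -0.37 (pregnant Treg against CD4conv). The tissue sign turned without lymph node Treg 1 and the pregnancy sign without uterine Treg 2. Above background, members lower in pregnant Treg than in CD4conv numbered 0 to 3 when 1 library was left out (3 without CD4conv 5, 0 without any of the other 7), 0 with the length trend removed (median -0.050), 0 without the 5 libraries over 30% background, 0 without both CD4conv 2 and lymph node Treg 1, and 5 by DESeq2. For Ndufc1, 2 of 12 alternatives passed the threshold, with values from -1.58 to -0.87. The cause of these moves was not tested.

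The replicate block over the non-pregnant libraries gave medians of -0.52 (tissue) and -0.79 (cell type), or -0.11 and -0.37 above background, with 0 calls. Same-numbered libraries correlated between -0.41 and 0.39. The highest correlation, 0.46, was between CD4conv 2 and lymph node Treg 1, which have different numbers. Such correlations also hold shifts of whole libraries, so they cannot decide whether equal numbers mark the same pools. Of 796 values of named members under alternatives, 61 changed sign, 0 of these past the threshold.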
